A study of Mus musculus with 12 samples.

Results

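Bile acid synthesis enzymes were followed across the livers of chow-fed, sham-operated and gastrectomized mice. The group held 10 genes of 24910 with an FPKM value, namely Cyp7a1, Cyp8b1, Cyp27a1, Cyp7b1, Hsd3b7, Akr1d1, Amacr, Baat, Slc27a5 and Scp2. Members were chosen by name, and the FPKM (fragments per kilobase of transcript, scaled to the fragments mapped in the library) of each gene was summed over its RefSeq transcripts. All mice were wild-type C57BL/6J males, and liver RNA and accessible chromatin were profiled from the same livers. Control mice received standard chow for 28 weeks without surgery. Sham and VSG mice received a high-fat diet with 60% of its energy from fat from 8 weeks of age, for 14 weeks before surgery and 14 weeks after it, apart from 4 days of liquid diet after the operation. Vertical sleeve gastrectomy (VSG) removed about 80% of the stomach, whereas the sham procedure only pressed on it. Each group had 2 mice. Control mice therefore differed from the other groups in diet and in surgery together, and these cannot be told apart in a comparison with Control.

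Hepatocytes make bile acids from cholesterol and secrete them into bile, and in the intestine bile acids help to absorb dietary fat. In the classic pathway, Cyp7a1 hydroxylates the sterol ring and sets the rate, and Cyp8b1 adds the hydroxyl group that distinguishes cholic acid. The alternative pathway begins with Cyp27a1 and continues with Cyp7b1. Hsd3b7 and Akr1d1 then modify the ring, Amacr and Scp2 act on the side chain in peroxisomes, and Slc27a5 and Baat attach coenzyme A and an amino acid.

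Cyp7a1 was the member that stood farthest apart in VSG mice. Its FPKM was 2.28 and 2.60 in the Control mice, was listed at 0 in Sham mouse 1 and 4.58 in Sham mouse 2, and was 68.3 and 13.2 in the VSG mice. The VSG mice were above all 4 other mice, although VSG mouse 1 was well above VSG mouse 2. On the scale of log2(FPKM + 1), Cyp7a1 was 3.73 ± 1.09 (SE) higher in VSG than in Sham mice (unadjusted p = 0.0185, adjusted p = 0.944, limma with Benjamini-Hochberg adjustment over 9869 genes). Against Control the difference was 3.19 ± 1.09 (unadjusted p = 0.0324, adjusted p = 0.483, limma). Neither passed the FDR threshold of 10%. Between Sham and Control it was -0.54 ± 1.09 (adjusted p = 0.876, limma). The listed value of 0 cannot be read as absence, because Rxra and Hnf4a, nuclear receptors of hepatocytes, were listed at 0 in Sham mouse 1 as well. In that mouse, 165 of the 7119 genes that reached an FPKM of 1 in each of the other 5 mice (2.32%) were listed at 0, against 0.776% to 1.31% in the other mice. Relative depth, estimated from the steps between low FPKM values, was lowest in Sham mouse 1, at 0.674 of Control mouse 1, and highest in VSG mouse 1, at 1.56. These are the mice with the lowest and the highest Cyp7a1, and the part of depth in these values was not tested. With the listed 0 taken as missing, the difference of VSG from Sham mice was 2.49 and that of Sham from Control was 0.70, so the latter changed sign.

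Cyp8b1, the sterol hydroxylase of the cholic acid branch, varied more between mice of a group than between groups. Its FPKM was 178 and 109.8 in Control, 177 and 30.3 in Sham and 295 and 123 in VSG mice. The 3 groups overlapped. The log2 difference of VSG from Sham mice was 1.36 ± 0.93 (adjusted p = 0.944, limma), and it ranged from 0.11 to 2.62 when single mice were left out.

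The promoter of Cyp8b1 is shown because it was the only one among the 5 members with a promoter sequence at hand (Cyp27a1, Scp2, Akr1d1, Hsd3b7 and Cyp8b1) in which any of the motifs searched was found, and because it lay under a FAIRE peak in all 3 groups. The 250 bases before the start site, from RefSeq (GRCm38.p6), matched 1 place of NCBIM37, chr9:121825424-121825673 on the minus strand. Capitals mark CAAAGTCCA, a motif of Hnf4a, at bases -67 to -59, CAAGGNCA, a motif of Nr5a2, at bases -60 to -53, and the TATA box TATAAA at bases -31 to -26, counted back from the start site. The first and second overlap by 2 bases.
Cyp8b1 promoter: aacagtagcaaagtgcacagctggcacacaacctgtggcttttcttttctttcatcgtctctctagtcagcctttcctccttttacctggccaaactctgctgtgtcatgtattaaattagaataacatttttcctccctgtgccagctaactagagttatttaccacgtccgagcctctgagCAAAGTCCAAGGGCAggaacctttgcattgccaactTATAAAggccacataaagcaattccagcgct

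On either strand, CAAAGTCCA occurred in 0.384%, CAAGGNCA in 5.53% and TATAAA in 12.4% of 32851 RefSeq promoters of the same length. A match describes the letters of the sequence and does not show a bound factor.

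Cyp27a1, which starts the alternative pathway in mitochondria, was lower in both diet groups than in Control. Its FPKM was 274 and 213 in Control, 136 and 100.1 in Sham and 165 and 128 in VSG mice. Every Sham and VSG mouse was below both Control mice, and the Sham and VSG mice overlapped. The log2 difference was -1.04 ± 0.29 between Sham and Control (unadjusted p = 0.0155, adjusted p = 0.36, limma) and -0.73 ± 0.29 between VSG and Control (unadjusted p = 0.0535, adjusted p = 0.532, limma). VSG and Sham mice differed by 0.31 ± 0.29 (adjusted p = 0.944, limma). Cyp7b1, the hydroxylase that follows it, had an FPKM of 165 and 145 in Control, 250.2 and 111 in Sham and 304 and 68.2 in VSG mice. The highest and the lowest of all 6 values were those of the VSG mice. Its log2 differences lay between -0.20 and 0.10 in the 3 comparisons, each with an SE of 0.80.

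**Figure D1:**
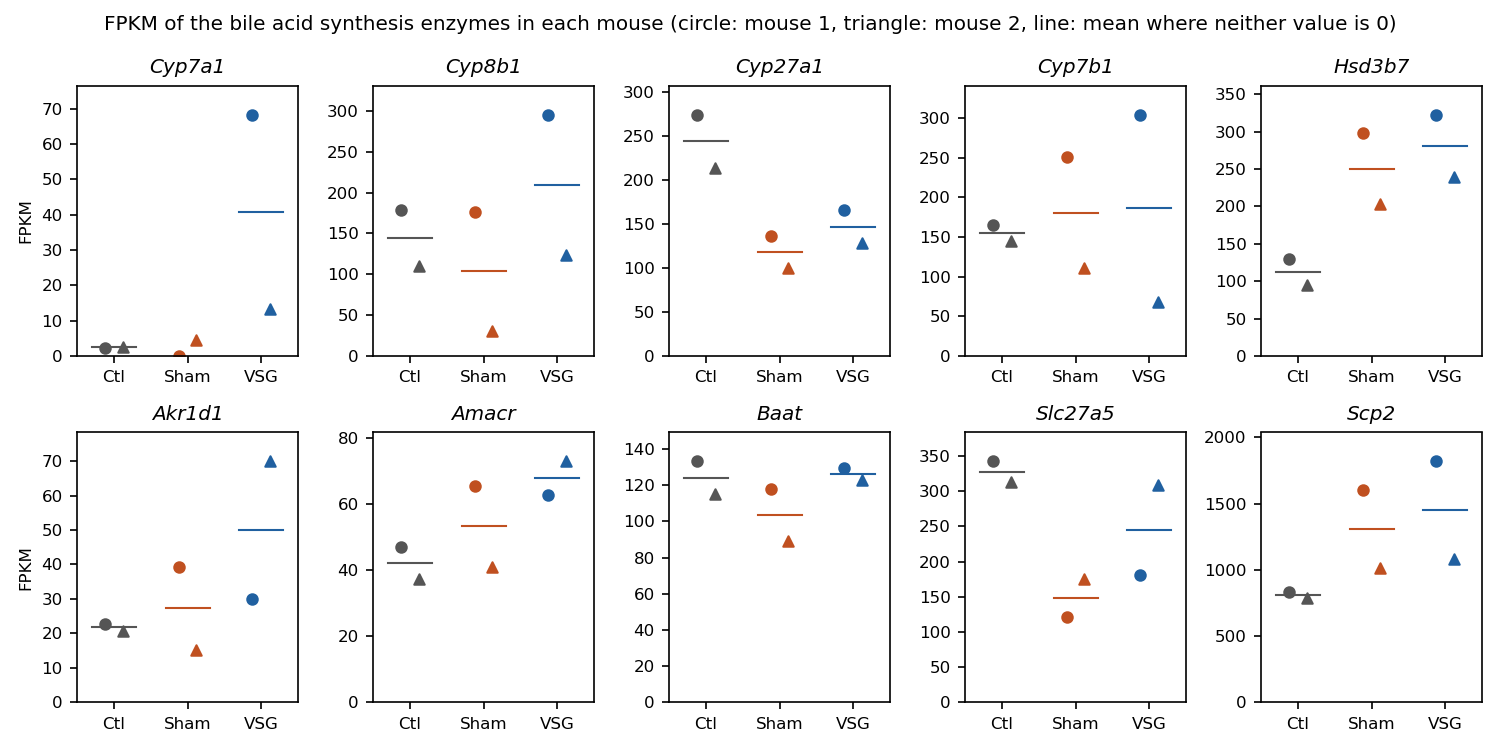
FPKM (y axis, from 0, with its own range in each panel) of the 10 enzymes in each mouse of the Control (Ctl), Sham and VSG groups (x axis). Circles and triangles are mice 1 and 2 and lines are group means, left out for Cyp7a1 in Sham mice because of the value listed at 0. Cyp7a1 was at 68.3 and 13.2 in VSG mice and at most 4.58 elsewhere, and Cyp27a1 was lower in all Sham and VSG mice than in Control mice.

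Of the enzymes that modify the ring, Hsd3b7, a hydroxysteroid dehydrogenase shared by both pathways, was higher in both diet groups. Its FPKM, summed over 2 transcripts, was 129 and 94.5 in Control, 298 and 203 in Sham and 322 and 239 in VSG mice. All Sham and VSG mice were above both Control mice, and Sham and VSG mice overlapped. The log2 difference was 1.15 ± 0.33 between Sham and Control (unadjusted p = 0.0172, adjusted p = 0.361, limma) and 1.32 ± 0.33 between VSG and Control (unadjusted p = 0.01, adjusted p = 0.377, limma). Its major transcript, NM_133943, carried an FPKM of 94.5 to 260.0 across the mice, and the minor one, NM_001040684, was listed at 0 in Control mouse 2 and reached 77.3 at most. Akr1d1, the reductase of the ring's double bond, had an FPKM of 22.8 and 20.6 in Control, 39.3 and 15.3 in Sham and 30.0 and 69.9 in VSG mice. The VSG mice were above both Control mice but not above both Sham mice, and the log2 difference of VSG from Control was 1.05 ± 0.59 (adjusted p = 0.652, limma), with a range of 0.45 to 1.64 when single mice were left out.

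Among the enzymes of the side chain, Amacr, a racemase, had an FPKM of 47.0 and 37.3 in Control, 65.6 and 41.0 in Sham and 62.6 and 72.9 in VSG mice. The values of both VSG mice exceeded both Control values, by 0.68 ± 0.30 on the log2 scale (unadjusted p = 0.0766, adjusted p = 0.586, limma). Scp2, a gene for a peroxisomal thiolase and a sterol carrier protein, was the most abundant member in every mouse. Its FPKM was 830.1 and 790.4 in Control, 1599 and 1016 in Sham and 1818 and 1078 in VSG mice, so that both diet groups were above both Control mice. The log2 difference was 0.65 ± 0.40 between Sham and Control (adjusted p = 0.597, limma) and 0.79 ± 0.40 between VSG and Control (adjusted p = 0.628, limma).

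The conjugating enzymes were higher in both VSG mice than in both Sham mice. Slc27a5, the bile acid coenzyme A ligase, had an FPKM of 342 and 314 in Control, 121 and 175 in Sham and 181 and 308 in VSG mice. Neither Sham nor VSG mice overlapped with Control mice, and VSG mouse 2 lay close to them. VSG mouse 1 was just above Sham mouse 2. The log2 difference was -1.16 ± 0.36 between Sham and Control (unadjusted p = 0.0228, adjusted p = 0.388, limma) and 0.69 ± 0.36 between VSG and Sham (unadjusted p = 0.111, adjusted p = 0.944, limma). Baat, the transferase that adds taurine or glycine, had an FPKM of 133 and 115 in Control, 118 and 89.4 in Sham and 129 and 123 in VSG mice. It varied least of all members, by 1.49-fold from the lowest to the highest mouse. Its log2 difference of VSG from Sham mice was 0.29 ± 0.24 (adjusted p = 0.944, limma).

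**Figure D2:**
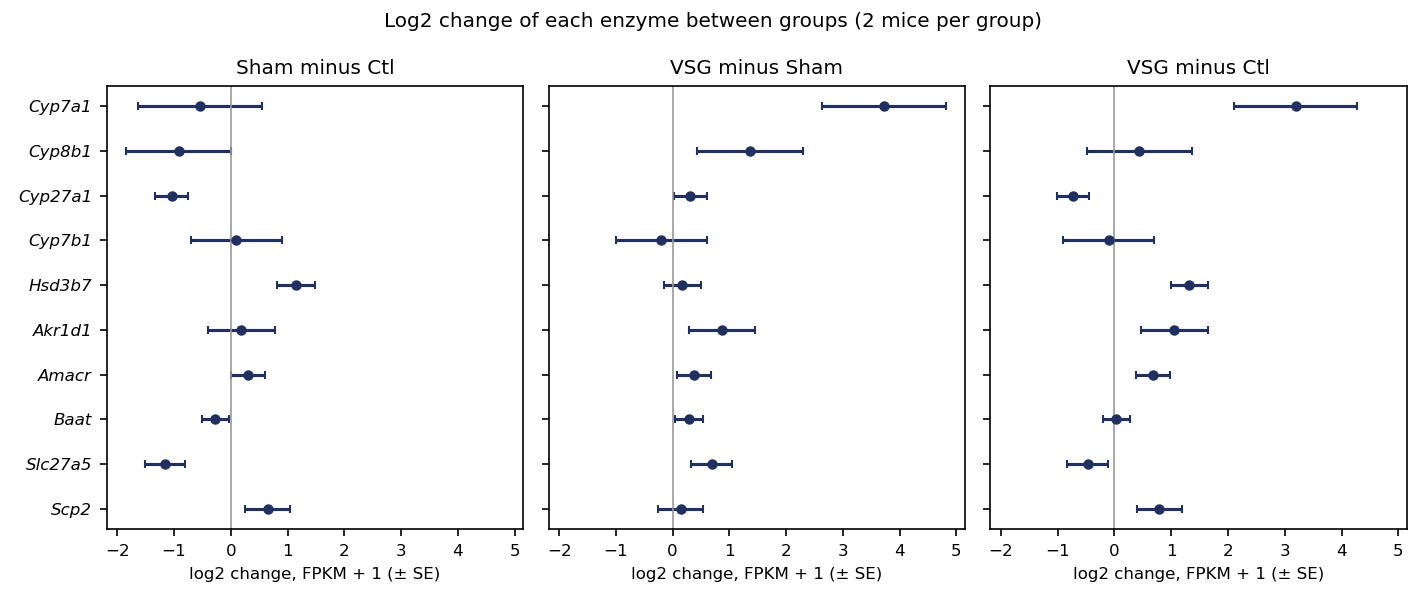
Log2 difference of each enzyme (x axis, on the scale of log2(FPKM + 1)) in the 3 comparisons of groups, from limma. Points are estimates and bars are ± 1 SE with 2 mice per group. Cyp7a1 had the largest difference between VSG and Sham mice, 3.73, and Hsd3b7 lay on the opposite side of 0 from Cyp27a1 and Slc27a5 in both comparisons with Control.

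Read over all members, no call was made at an FDR of 10% in limma. Between Sham and Control, 0 of 10 members were called, where 0.284% of all 9869 genes tested were, and 3 had an unadjusted p under 0.05, a level reached by 10.9% of all genes. Between VSG and Sham, 0 of 10 were called (0.0507% of all genes), and only Cyp7a1 had an unadjusted p under 0.05 (4.85% of all genes). Between VSG and Control, 0 of 10 were called (0.284% of all genes), and 2 had an unadjusted p under 0.05 (9.56% of all genes). All 10 members passed the filter, an FPKM of 1 or more in no fewer than 2 mice.

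Groups that did not overlap were common among all genes with 2 mice a group. Both Sham mice were above both Control mice for Hsd3b7 and Scp2, 2 of 10 members against 25.4% of all genes, and below them for Cyp27a1 and Slc27a5, 2 of 10 against 20.4%. Both VSG mice were above both Sham mice for Cyp7a1, Baat and Slc27a5, 3 of 10 against 18.5%, and below them for no member, against 9.78%. Against Control, both VSG mice were higher for Cyp7a1, Hsd3b7, Akr1d1, Amacr and Scp2, 5 of 10 against 33.7%, and lower for Cyp27a1 and Slc27a5, 2 of 10 against 14.8%.

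The median log2 difference of the 10 members was 0.34 between VSG and Sham mice, with 9 members above 0, beside a median of 0.08 and 59.6% above 0 among all genes tested. The SD within groups of the median over members was 0.33 here. The difference of 0.34 was 0.10 without Sham mouse 2 and 0.18 after quantile normalization. The median was 0.56 between VSG and Control, with 7 members above 0, beside 0.13 and 61.3%. It was -0.08 between Sham and Control, with 5 members above 0, beside 0.04 and 52.8%. The comparisons share mice, so their values are not independent of each other. Mice of 1 group differed among themselves as well. Members were higher in mouse 1 than in mouse 2 in 9 of 10 cases in Control, in 8 of 10 after the sham operation and in 7 of 10 after VSG, where 50.0%, 52.9% and 46.5% of all genes tested were. In Sham mice, 4 of 10 members were at least 2-fold apart between the mice, where 21.7% of all genes were, and in VSG mice 4 of 10 against 15.8%.

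The order of the members by FPKM was similar across mice at its ends. Scp2 ranked 1 in all 6 mice, and Cyp7a1 ranked 10 in 5 of them and 8 in VSG mouse 1. Slc27a5 ranked 2 in both Control mice, whereas Hsd3b7 ranked 7 in both Control mice and 2 in both Sham mice. In VSG mice, Hsd3b7 ranked 2 and 3.

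Ratios of RNA within a mouse set Cyp7a1 beside Cyp7b1, Cyp27a1 and Cyp8b1. The last of these is, like Cyp7a1, an enzyme of the classic pathway, and no ratio measures the flow through a pathway. Since 1 was added to each FPKM, the ratios depend on the pseudocount where Cyp7a1 is low. The log2 ratio of Cyp7a1 to Cyp7b1, both with 1 added to the FPKM, was -5.66 and -5.35 in Control, -7.97 and -4.32 in Sham and -2.14 and -2.28 in VSG mice. The VSG mice agreed closely and were above the other 4 mice. The mean of VSG mice was 3.94 above that of Sham mice and 3.29 above that of Control mice (both p = 0.33, exact permutation test, 2-sided, n = 2 per group). With 2 mice against 2, 0.33 is the smallest p that this test can give. Without Sham mouse 1, in which Cyp7a1 was listed at 0, the difference of VSG from Sham was 2.11, and without Sham mouse 2 it was 5.76.

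For Cyp7a1 to Cyp27a1, the log2 ratio was -6.39 and -5.90 in Control, -7.10 and -4.18 in Sham and -1.26 and -3.18 in VSG mice. The VSG mice were again above the other 4, and the difference of VSG from Sham was 3.42 (p = 0.33, exact permutation test, n = 2 per group), or 1.96 without Sham mouse 1. The log2 ratio of Cyp8b1 to Cyp7a1, the hydroxylase of the cholic acid branch against the first enzyme, was 5.77 and 4.94 in Control, 7.47 and 2.49 in Sham and 2.10 and 3.13 in VSG mice. VSG and Sham mice overlapped here, and without Sham mouse 1 their difference turned from -2.37 to 0.12.

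**Figure D3:**
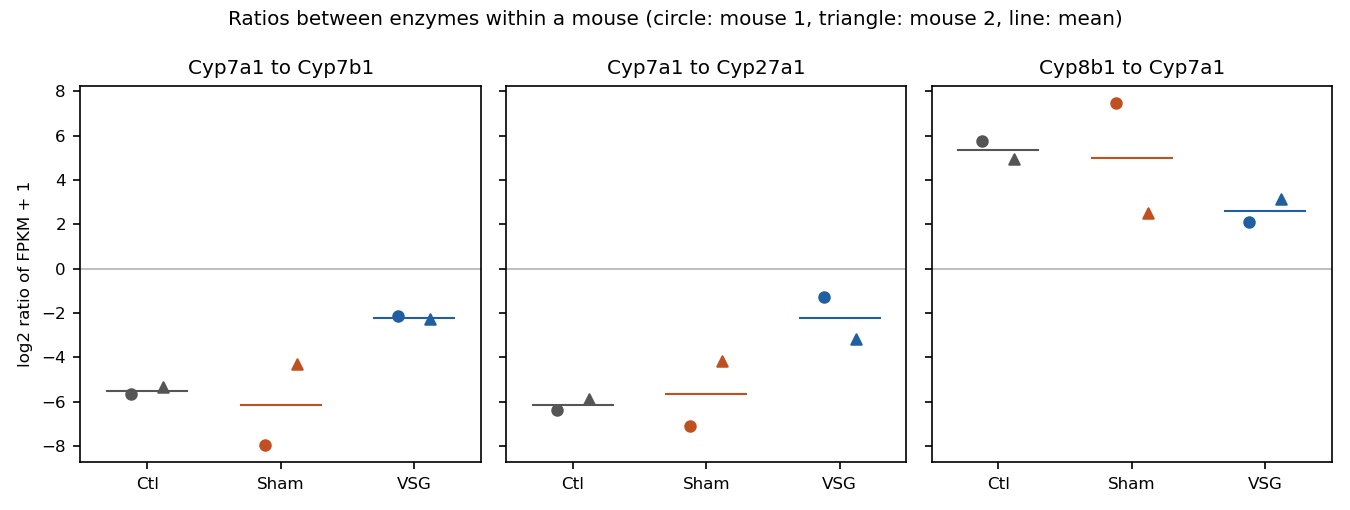
Log2 ratio of FPKM + 1 (y axis) between pairs of enzymes within a mouse, for the Control (Ctl), Sham and VSG groups (x axis). Circles and triangles are mice 1 and 2 and lines are group means. The ratio of Cyp7a1 to Cyp7b1 was -2.14 and -2.28 in VSG mice and lay between -7.97 and -4.32 in the other mice.

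The summed FPKM of Cyp27a1 and Cyp7b1 exceeded that of Cyp7a1 and Cyp8b1 in every mouse. Such sums of RNA do not measure the flow through a pathway. Cyp27a1 and Cyp7b1 together ranged from 196 to 469, and Cyp7a1 and Cyp8b1 together from 34.8 to 363. Cyp7a1 amounted to 22.5% and 19.4% of the Cyp7b1 value in VSG mice, to 1.38% and 1.79% in Control mice and to 4.14% in Sham mouse 2. The genes whose log2(FPKM + 1) followed Cyp7a1 most closely over the 6 mice, among 5386 searched, were St3gal4 (Pearson r = 0.977), BC003965 (r = 0.972), Slc16a5 (r = 0.953), Zfp950 (r = 0.944) and Jun (r = 0.942). These are a description over mice that fall into 3 groups, with VSG mouse 1 the highest for all 5 genes. Sham mouse 1, where Cyp7a1 was listed at 0, was the lowest for all 5. Every r with Cyp7a1 includes that listed value. Among the 7 other members that ranged over at least 1 log2 unit, r with Cyp7a1 lay between -0.10 and 0.36.

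The wider pathway held no call at an FDR of 10% in limma in any of the 3 comparisons. Of 14 other enzymes of bile acid synthesis, 11 were tested. Between VSG and Sham mice, 9 of the 11 were above 0 with a median log2 difference of 0.38, and none had an unadjusted p under 0.05. Against Control, 2 of 11 did in VSG mice (9.56% of all genes) and 1 of 11 in Sham mice (10.9% of all genes). Fdxr, which passes electrons to mitochondrial P450 enzymes such as Cyp27a1, was listed at 0 in both Control mice and in Sham mouse 1, and had an FPKM of 5.58 in Sham mouse 2 and of 9.15 and 10.5 in VSG mice. Akr1c6, an aldo-keto reductase of a family of close copies between which reads may be split, had an FPKM of 406 and 321 in Control, 790.3 and 228 in Sham and 1037 and 1075 in VSG mice. Its values in both VSG mice exceeded the other 4, by 1.31 ± 0.62 against Sham on the log2 scale (unadjusted p = 0.0872, adjusted p = 0.944, limma).

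Of 16 regulators of bile acid synthesis, 11 were tested. In VSG against Sham mice, 1 of the 11 had an unadjusted p under 0.05 (limma) and was lower, beside 4.85% of all genes. In VSG against Control mice 2 did, 1 higher and 1 lower, beside 9.56% of all genes. Rxra, the partner of the bile acid receptor, had an FPKM of 65.0 and 74.7 in Control, 66.3 in Sham mouse 2 and 71.0 and 86.7 in VSG mice. Hnf4a, a hepatocyte factor that acts on Cyp7a1 and Cyp8b1, had an FPKM of 31.0 and 55.6 in Control, 73.3 in Sham mouse 2 and 16.0 and 34.4 in VSG mice. Both were listed at 0 in Sham mouse 1, and their differences from Sham rest on that value. Nr5a2, Prox1 and Nr1i3 were listed at 0 in all 6 mice, and this was not read as absence of their RNA.

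Of 14 transporters of bile acids and sterols, 12 were tested. Between VSG and Sham mice, 10 of the 12 were above 0 with a median log2 difference of 0.81, and 3 had an unadjusted p under 0.05, all of them higher, beside 59.6% above 0 and 4.85% under that p among all genes. Between Sham and Control, 8 of the 12 were below 0 with a median of -0.62, and 3 had an unadjusted p under 0.05, 1 higher and 2 lower, beside 10.9% of all genes. The transporters named here had the largest differences between VSG and Sham and were not among these with a low p in that comparison. Abcc2, a canalicular exporter, had an FPKM of 23.8 and 17.1 in Control, was listed at 0 in Sham mouse 1 and 22.2 in Sham mouse 2, and was 18.3 and 58.7 in VSG mice. Its log2 difference of VSG from Sham, 2.82 ± 1.54 (unadjusted p = 0.128, limma), includes the listed 0. Slco1a4, an uptake carrier, was at 1.49 in Control mouse 1 and listed at 0 in Control mouse 2, reached 1.90 and 1.05 in Sham mice, and stood at 3.75 and 15.1 after VSG. Both VSG mice were above the other 4 mice for Slco1a4, and the log2 difference of VSG from Sham was 1.84 ± 0.74 (unadjusted p = 0.0562, adjusted p = 0.944, limma).

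Marker genes of the liver were checked beside the members. The 7 hepatocyte markers in the table summed to an FPKM of 25449 to 39323, and those of other cell types to at most 342 per mouse. The mean log2(FPKM + 1) of these 7 was 10.43 and 10.45 in Control, 8.92 and 9.68 in Sham and 10.16 and 10.13 in VSG mice. This mean is sensitive to single markers. The log2 differences of the 7 ran from -4.01 to 0.22 between Sham and Control, with a median of -0.42. Between VSG and Sham they ran from -0.25 to 4.46, with a median of 0.37. In Sham mouse 1, which had the lowest mean, the sum was 36472, between the Control sums of 33128 and 39323. At an FDR of 10% in limma, 1 of the 7 was called lower in Sham than in Control mice. In VSG against Control mice 1 was also called lower, beside 0.284% of all genes called in each comparison. Kupffer cell markers (11 of 11 tested) summed to 52.9 and 36.3 in Control, 136 and 128 in Sham and 105 and 342 in VSG mice. All 11 had a log2 difference above 0 between VSG and Control, beside 61.3% of all genes tested. Between VSG and Sham, 9 of the 11 were above 0, beside 59.6% of all genes. Neutrophil markers (3 of 8 tested) summed to 5.33 to 47.2, and cholangiocyte markers (3 of 7 tested) to 33.9 to 191. In both lists, the 3 tested were below 0 between VSG and Sham. Stellate cell markers (7 of 9 tested) summed to 90.7 and 76.3 in Control, 22.2 and 36.9 in Sham and 75.6 and 108 in VSG mice. Of the 7, 5 were higher in VSG than in Sham mice at an unadjusted p under 0.05 (limma). That p was reached by 4.85% of all genes in either direction. Sinusoidal endothelial markers (8 of 9 tested) summed to 49.3 and 22.9 in Control, 9.70 and 8.50 in Sham and 35.1 and 30.8 in VSG mice. All 8 had a log2 difference below 0 between Sham and Control, where 52.8% of all genes tested were above 0. Between VSG and Sham, 7 of the 8 were above 0, and 3 had an unadjusted p under 0.05 (limma), all of them higher. The part of these cell types in the values of the enzymes was not tested. No marker of these lists was listed at 0 in all mice. In bulk liver, fewer cells of a type and less RNA per cell cannot be told apart.

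Other gene programmes of the hepatocyte were measured beside the members. The 12 acute phase genes in the table summed to 15967 and 16677 in Control, 37924 and 67313 in Sham and 28497 and 13015 in VSG mice. The 9 periportal markers were all below 0 between Sham and Control, with a median log2 difference of -1.49. All 9 were also below 0 between VSG and Control, with a median of -1.11. Among all genes tested, 52.8% and 61.3% were above 0 in these comparisons, with medians of 0.04 and 0.13. The 10 pericentral markers had a median of -0.33 and 0.02 in these comparisons. The 16 circadian clock genes, counted because Cyp7a1 is known to follow the time of day, summed to 166 and 114 in Control, 142 and 100.3 in Sham and 154 and 244 in VSG mice, and 3 of the 14 tested had an unadjusted p under 0.05 between VSG and Control (2 higher and 1 lower, beside 9.56% of all genes). Between Sham and Control 2 of the 14 did, both lower, beside 10.9% of all genes. Between VSG and Sham 1 did, which was lower, beside 4.85% of all genes. Their part in the values of the enzymes was not tested.

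FAIRE (Formaldehyde-Assisted Isolation of Regulatory Elements) recovers DNA that is not packed in nucleosomes, and its peaks mark accessible chromatin. Each peak list combines both mice of a group, so peaks have no error and no test. A peak within 1000 bp of a start site was present for 7 of 10 members in the Control list, 6 in the Sham list and 7 in the VSG list. Among 8413 protein-coding genes that passed the FPKM filter, the share was 90.0%, 89.6% and 91.0%. Cyp8b1, Cyp27a1, Hsd3b7, Amacr, Slc27a5 and Scp2 had such a peak in all 3 lists. Cyp7a1, Akr1d1 and Baat had none in any list. Cyp7b1 alone made the counts differ, with such a peak in the Control and VSG lists. These peaks did not overlap each other and were low in their lists, at percentile 3.5 in Control and 15.1 in VSG.

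The promoter peak of Hsd3b7 (chr7:134943781-134944316, mm9) was among the strongest of each list by F-seq signal, at percentile 96.2 in the Control list, 92.6 in the Sham list and 93.6 in the VSG list. Those of Slc27a5 (chr7:13583469-13583790) were at percentile 91.1, 91.7 and 90.8, and those of Scp2 (chr4:107790795-107791365) at 90.1, 89.4 and 91.1. The promoter peak of Cyp8b1 (chr9:121825065-121825781) ranked lower, at percentile 41.0, 63.4 and 45.8. Cyp8b1 sat in the densest cluster, with 11 regions in 22.0 kb around the gene, 8 of them present in all 3 lists.

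Cyp7a1 (chr4:6192759-6202780, minus strand) had 3 accessible regions within 10 kb of the gene, none in all 3 lists and none in VSG mice. One covered the UTR at the 3′ end of the gene (chr4:6192841-6193042) in Control and Sham mice, at percentile 15.1 and 7.6, and the other two were intergenic and in Sham mice only, at percentile 6.2 and 7.8. All were near the bottom of their lists. Around all members, 44 of 78 regions (56.4%) were in all 3 lists, beside 55.2% of 59249 regions in the genome. Of the 78, 15 (19.2%) were in Control only, against 5.32% in the genome, and 11 of these 15 lay around Scp2.

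**Figure D4:**
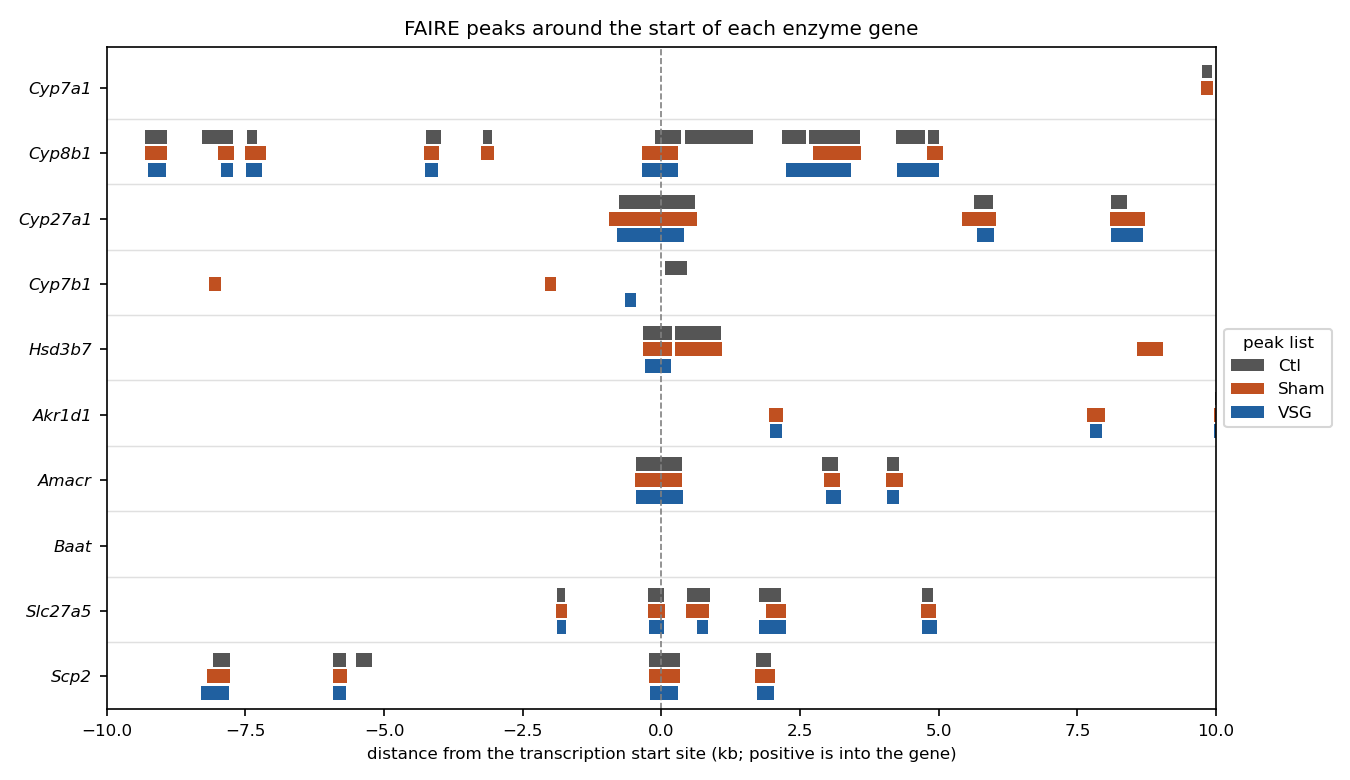
FAIRE peaks (bars, to scale) within 10 kb of the start site of each enzyme gene, by distance from the start site in kb (x axis, positive into the gene), for the Control (Ctl), Sham and VSG peak lists. Each list combines 2 mice. Peaks covered the start of 6 genes in all 3 lists, and Cyp7a1, Akr1d1 and Baat had no peak within 1000 bp.

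Sites that the study listed as variable between Sham and VSG mice lay within 100 kb of the start of 3 members. These lists give positions without values. The list more accessible in Sham mice had a site near 1 member, Hsd3b7, where 1.52% of the 8413 genes had one. The list more accessible in VSG mice had a site near 2 members, Cyp7b1 and Cyp7a1, where 8.01% of genes had one. The lists of reversible sites had none near a member (3.59% and 0.773% of genes). The site near Cyp7a1 (chr4:6292652-6293275) was 89.9 kb upstream, in all 3 peak lists and 103 bp from the start of Sdcbp, so it lies at another gene. The other two sites are shown in full or in part, because each was a peak in only 1 of the 3 lists.

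The Hsd3b7 site (chr7:134915692-134915950, mm9, plus strand) lay in an intron of Orai3, and the nearest start, 2492 bp away, was that of Orai3. It was 28.2 kb upstream of the Hsd3b7 start used here, and Hsd3b7 has 5 protein-coding starts. The site was a peak in Sham mice only, at percentile 76.8. The Cyp7b1 site (chr3:18091317-18091629) lay 51.7 kb into the gene in an intron and was a peak in VSG mice only, at percentile 28.4. Its middle 300 bases (chr3:18091324-18091623, minus strand, mm9) are given. Neither holds one of the motifs searched in the Cyp8b1 promoter, so no letters are in capitals.
Hsd3b7 site: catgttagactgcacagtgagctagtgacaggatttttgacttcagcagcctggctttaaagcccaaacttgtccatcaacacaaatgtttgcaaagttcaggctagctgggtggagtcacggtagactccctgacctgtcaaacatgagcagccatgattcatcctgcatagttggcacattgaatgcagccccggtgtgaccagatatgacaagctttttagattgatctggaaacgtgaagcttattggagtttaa
Cyp7b1 site: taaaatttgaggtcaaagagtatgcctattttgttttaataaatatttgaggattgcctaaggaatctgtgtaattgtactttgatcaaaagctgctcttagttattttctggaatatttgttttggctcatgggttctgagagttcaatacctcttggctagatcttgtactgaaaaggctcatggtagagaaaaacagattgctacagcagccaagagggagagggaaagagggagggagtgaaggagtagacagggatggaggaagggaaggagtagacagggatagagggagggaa

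In the middle 250 bases of all 59249 accessible regions, the motif of Hnf4a was found in 1.54%, that of Nr5a2 in 9.57% and the TATA box in 5.68%. Beside these sites, the FPKM of Hsd3b7 was 298 and 203 in Sham and 322 and 239 in VSG mice, and that of Cyp7b1 was 250.2 and 111 in Sham and 304 and 68.2 in VSG mice. For both genes the Sham and VSG mice overlapped.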

How the data were processed

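Liver RNA and FAIRE DNA of 2 mice per group were analysed from the deposited tables. The authors aligned the RNA reads to mm9 with TopHat2 and derived FPKM per RefSeq transcript with Cufflinks. The labels name poly(A) enrichment and the study's methods name ribosomal RNA depletion. For FAIRE, the authors aligned reads with Bowtie, took the peak signal from F-seq and retained peaks by IDR over both mice. Read totals were not at hand, and relative depth, estimated from the steps between low FPKM values, ranged from 0.674 to 1.56 of that of Control mouse 1. The authors' tables of fold changes and p-values were not used.

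FPKM was summed per gene (34046 of 34933 transcripts matched a RefSeq symbol), and genes that reached an FPKM of 1 in 2 or more of 6 mice were fitted as log2(FPKM + 1) in limma 3.58.1 (R 4.3.3), with all 3 groups, a variance trend and Benjamini-Hochberg adjustment (FDR 10%). The scale understates changes of low genes. Ratios were compared with exact permutation tests. The labels do not say how mice were paired. The limma p-values rest on a spread within groups that was pooled over all 3 groups and moderated over all genes tested. A gene therefore has the same SE in each comparison, also where the mice of 1 group nearly agree. The fits and overlaps were tested on simulated data. Peaks were placed on GENCODE genes of NCBIM37 (mm9). Python 3.11.15 with pandas 2.3.3, numpy 2.4.6 and matplotlib 3.10.9 was used.

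The members and gene lists were chosen with earlier results of these data known. Named genes were all members, any gene called in the lists of other enzymes, regulators and transporters, the 2 genes of each of these lists with the largest difference between VSG and Sham, and the 5 genes most like Cyp7a1. Alternatives were another pseudocount, filter, scaling, transcript choice, variance model, set of groups, replicate block, promoter window, peak threshold and overlap, and each mouse left out.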

Additional observations from a re-analysis of the deposited data

How the results depend on the processing

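The number of members called at an FDR of 10% in limma was 0 in each comparison under every alternative run. Over all genes, limma called 28 genes between Sham and Control, 5 between VSG and Sham and 28 between VSG and Control, and these counts moved with the processing. Between Sham and Control they were 64 without a filter, 17 with only the 2 groups compared and 7 with listed 0 values taken as missing, an alternative chosen after seeing the data. Between VSG and Sham they were 9 with 1 value per transcript, 8 with a pseudocount of 0.1, 0 with only the 2 groups compared and 0 with listed 0 values missing, and between VSG and Control 1 with listed 0 values missing. With the replicate block they were 9, 0 and 10, and no member was called. The block could not change a median, because each replicate number occurs once in every group. The correlation of deviations of same-numbered mice was 0.118 for Control and Sham, 0.064 for Control and VSG and 0.039 for Sham and VSG, and the mice share only a number. Leaving out single mice gave 0 to 157 calls between Sham and Control, 0 to 50 between VSG and Sham and 0 to 34 between VSG and Control. Without either Control mouse, 0 genes were called in all 3 comparisons, and without Sham mouse 2 157 and 50 were called in the comparisons with Sham.

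Quantile normalization moved the median of all genes between VSG and Control from 0.13 to 0.00 on the log2 scale. Relative to that median, the members stood at 0.44 as reported and 0.38 after it. Between VSG and Sham, the median of the members went from 0.34 to 0.18, or from 0.27 to 0.19 relative to all genes, and the genes higher among those called between VSG and Sham went from 3 of 5 to 3 of 4. It turned Hsd3b7 between VSG and Sham to -0.09 and Baat between VSG and Control to -0.09, the latter also under upper-quartile scaling, at -0.03. The sign of Cyp7a1 between Sham and Control turned to 0.70 with the listed 0 missing. With single mice left out, the median of the members ranged from -0.47 to 0.49 between Sham and Control, from 0.10 to 0.51 between VSG and Sham and from 0.20 to 0.81 between VSG and Control. Signs of single members that turned had ranges, between Sham and Control, of -1.78 to 0.70 for Cyp7a1, -2.17 to 0.33 for Cyp8b1, -0.48 to 0.69 for Cyp7b1, -0.47 to 0.83 for Akr1d1 and -0.03 to 0.64 for Amacr. Between VSG and Sham they were -1.27 to 0.86 for Cyp7b1, -0.10 to 0.45 for Hsd3b7 and -0.24 to 0.51 for Scp2, and between VSG and Control -0.18 to 1.07 for Cyp8b1, -1.17 to 0.97 for Cyp7b1 and -0.08 to 0.13 for Baat. Other differences kept their sign but had wide ranges, such as 2.49 to 4.97 for Cyp7a1, 0.31 to 1.08 for Slc27a5 and 0.10 to 0.49 for Baat between VSG and Sham and 0.41 to 1.17 for Scp2 between VSG and Control.

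The difference of VSG from Sham in the log2 ratio of Cyp7a1 to Cyp7b1 was 5.67 with a pseudocount of 0.1 and ranged from 2.11 to 5.76 with single mice left out. For Cyp7a1 to Cyp27a1 it was 5.15 and ranged from 1.96 to 4.88, and for Cyp8b1 to Cyp7a1 it ranged from -4.86 to 0.12. The same differences of Sham from Control ranged from -2.47 to 1.18, from -0.96 to 1.96 and from -2.87 to 2.11. Members with a FAIRE peak went from 7 to 10 in Control, from 6 to 10 in Sham and from 7 to 9 in VSG mice when the gene with 10 kb either side replaced the promoter, and to 5, 6 and 5 with only the peaks above the median signal of each list. Causes other than those given were not tested. With 2 mice a group, only large differences can pass the threshold, and read totals were not at hand.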
